A study of Saccharomyces cerevisiae with 18 samples.

Results

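The 32 genes described here encode the machinery that brings proteins into the mitochondria of the yeast Saccharomyces cerevisiae. They were taken by name from the 6713 open reading frames in the deposited count tables, and all 32 were found there, each with its own locus in the R64 assembly and, apart from ERV1, with a single coding exon. By role they fall into the TOM complex (8 genes), the small TIM chaperones (5), the TIM22 complex (3), the TIM23 complex (4), the import motor (5), the SAM complex (4), and a set of 3 for oxidation in the intermembrane space and insertion into the inner membrane. The study asked how yeast changes its mRNA levels and its translation when it lacks TMA20 (MCT-1 in mammals), TMA64 (eIF2D) or both, factors that act in ribosome recycling and re-initiation. All strains share the background BY4741 (MATa his3Δ1 leu2Δ0 met15Δ0 ura3Δ0), so the wt controls carry these auxotrophic deletions too. Δtma20 and Δtma64 each have 1 gene replaced by a KanMX4 cassette, and ΔΔtma20tma64 has TMA64 replaced by HygMX4 and TMA20 by KanMX4. Cells grew at 30 °C to the exponential phase in rich YPD or minimal SD, both with 2% glucose, and every culture received cycloheximide, which arrests ribosomes on mRNA, at 100 µg/ml for 3 min before harvest. For SD, the methods of the study give complete amino acid supplementation, whereas the sample labels name a nitrogen base without amino acids and no supplement. From each of 9 lysates, 1 portion was used for RNA-Seq of mRNA captured on oligo(dT) beads and another for Ribo-Seq of ribosome-protected fragments (footprints) from monosomes. Only wt in YPD was grown in replicate, as the 2 biological replicates WT1 and WT2; all further combinations of strain and medium are a single lysate.

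Nearly all mitochondrial proteins are made on cytosolic ribosomes and imported as precursors. They are recognized by receptors of the TOM complex and cross the outer membrane through its channel, after which routes part. Precursors with a presequence are drawn through the TIM23 complex by the import motor, which is built around the mitochondrial Hsp70. Carrier proteins are escorted by the small TIM chaperones to the TIM22 complex, beta-barrel proteins are folded into the outer membrane by the SAM complex, and small proteins with paired cysteines are trapped in the intermembrane space by oxidation through MIA40 and ERV1. In yeast grown on glucose, respiration is repressed but import remains essential for growth.

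Counts over all open reading frames ranged from 5608491 to 11388027 per library in RNA-Seq, with a median of 9789698, and from 1668588 to 23532664 in Ribo-Seq, where the median was 6589096. Footprints were fewest in Δtma20 in SD (1668588 counts) and wt in SD (2337313 counts), and both libraries bear on the comparison of the media. They are also the only lysates in SD that carry TMA64, so depth and the presence of TMA64 cannot be told apart in SD. The 32 import genes together took 0.393% to 0.425% of the counts of an RNA-Seq library and 0.328% to 0.388% of those of a Ribo-Seq library, and the lowest count of any of them in any Ribo-Seq library was 25 (MDM10). All 32 passed the filter on low counts in both assays. Every 28-nt window, about the length of a footprint, of all 32 coding sequences is unique in the genome. None of the 32 overlaps another open reading frame on its own strand among the 6013 found in RefSeq R64. Overlaps with the rest of the 6713 were not checked. As a check of the labels, TMA20 had 0 to 16 counts in RNA-Seq libraries labelled as lacking it and 879 to 1654 in the others, and TMA64 had 0 to 7 against 533 to 978. For the MATa background, 6 genes specific to MATa cells summed to 1143 to 2231 CPM in RNA-Seq and 4 specific to MATα cells to 40.8 to 58.6 CPM. Of the auxotrophic genes, LEU2, MET17 (also named MET15) and URA3 had 0 or 1 counts in every RNA-Seq library. HIS3, whose allele is labelled his3Δ1 and not Δ0 as in these genes, had 157 to 294 CPM in RNA-Seq. The origin of its reads was not tested. WT1 and WT2 differed by a median of 0.154 on the log2 scale for mRNA of the 32 genes and 0.116 for their footprints, where the widest gaps were those of TIM12 (0.73, RNA-Seq) and OXA1 (0.43, Ribo-Seq).

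The small TIM chaperones share a known sequence feature, though the genes were chosen by name. The search below was built around that feature, so its presence in these genes is a description and no independent result. Their proteins carry paired cysteines, and it is through these that MIA40 retains them in the intermembrane space. In the coding sequences, the letters searched were a cysteine codon (TGC or TGT), 9 bases in frame and a second cysteine codon, occurring as a pair with 10 to 20 codons between the motifs on the coding strand. Such a pair was found in 14 of 5331 genes measured in Ribo-Seq (0.263%), and TIM8, TIM9, TIM10, TIM12 and TIM13 were the 5 among the 32 that had it. The motifs are shown for these genes from the R64 genome, 5′ to 3′ on the coding strand, with the cysteine codons in capitals.
TIM8 first motif (chrX:677100-677114, forward strand): TGCttcaaaaaaTGT
TIM8 second motif (chrX:677160-677174, forward strand): TGTttgtctaacTGT
TIM9 first motif (chrV:117313-117327, forward strand): TGTttcacagacTGT
TIM9 second motif (chrV:117373-117387, forward strand): TGCatcatgaagTGC
TIM10 first motif (chrVIII:115770-115784, reverse strand): TGTtataaaaaaTGT
TIM10 second motif (chrVIII:115707-115721, reverse strand): TGCctagacagaTGT
TIM12 first motif (chrII:427353-427367, reverse strand): TGTcttgagaaaTGT
TIM12 second motif (chrII:427287-427301, reverse strand): TGCatagacagaTGT
TIM13 first motif (chrVII:858455-858469, forward strand): TGCtttgaaaaaTGC
TIM13 second motif (chrVII:858503-858517, forward strand): TGCattgaccagTGT
The spacing of 3 codons within each motif follows from the search, while the bases between the cysteine codons differ from gene to gene.

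Surroundings of the start codon are shown for the genes on which the results below turn, as 12 bases before and 3 bases after the start codon, which is in capitals. They come from R64 and are given 5′ to 3′ on the coding strand.
TOM5 (YPR133W-A, chrXVI:797545-797562, forward strand): agatagtataaaATGttt
TOM7 (YNL070W, chrXIV:493354-493371, forward strand): aacaaataaaccATGagt
TOM22 (YNL131W, chrXIV:378755-378772, forward strand): agcatcattcaaATGgtc
TOM70 (YNL121C, chrXIV:400532-400549, reverse strand): tctcaattgccaATGaag
TIM8 (YJR135W-A, chrX:676959-676976, forward strand): aaacaacaaagaATGtct
TIM17 (YJL143W, chrX:147089-147106, forward strand): cacgggagcgttATGtca
TIM44 (YIL022W, chrIX:311153-311170, forward strand): ctatttcagttcATGcac
TIM21 (YGR033C, chrVII:554962-554979, reverse strand): caagtttaaacaATGagc
An A stood 3 bases before the start codon, the position that matters most for initiation in yeast, in 22 of the 32 import genes (68.8%) and in 61.8% of 5319 genes measured in Ribo-Seq. TOM5, TOM7, TIM8 and TIM21 have it, whereas TIM17 has G, TIM44 has T, and TOM22 and TOM70 have C. No ATG lay within the 12 bases before the start codon of any of the 32 genes, compared with 3.18% of all these genes.

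Levels between genes were compared per kb of coding sequence, in CPM, the count of a gene relative to the TMM-scaled total of its library. In YPD, TIM10, which with TIM9 forms the chaperone hexamer for carriers, was the most abundant member, at 963 ± 83.3 CPM per kb in RNA-Seq and 813 ± 41.2 CPM per kb in Ribo-Seq (SD, n = 5, where SD beside n is the standard deviation and elsewhere the medium). MDM10, a beta-barrel shared between the SAM complex and the ER-mitochondria tether, was the least abundant, at 31.4 ± 3.17 and 11.5 ± 0.811 CPM per kb (SD, n = 5). The range over the 32 genes was thus 30.6-fold in mRNA and 70.6-fold in footprints. By an earlier study that the paper cites, cycloheximide added before harvest strengthens footprint signals at initiation sites. Its part in the footprints per kb of short genes, such as TIM10 (282 nt) and TOM5 (153 nt), was not tested. In footprints TIM10 was followed by TOM22 (587 ± 39.3 CPM per kb), TOM5 (585 ± 75.1) and TOM7 (507 ± 30.5), each the mean ± SD of the same 5 lysates. TOM22 and TOM5 did not differ beyond their spread. At the other end, the inner membrane subunit TIM54 (29.4 ± 2.74 CPM per kb), SAM50 (31.9 ± 2.21) and SAM37 (34.3 ± 3.35) followed, of which SAM50 lay within the spread of TIM54 and of SAM37.

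Translation efficiency, here the ratio of Ribo-Seq CPM to RNA-Seq CPM in 1 lysate, had a median of 0.738 over the 32 genes in YPD, beside 0.543 over all genes measured in Ribo-Seq. TOM70, the receptor for hydrophobic carrier precursors, had the highest value (2.11 ± 0.174, SD, n = 5), followed by TOM22, the central receptor (1.93 ± 0.221), and by the channel TOM40 (1.45 ± 0.0626). TOM70 and TOM22 did not differ beyond their spread. TIM21, a subunit of the TIM23 complex that contacts the respiratory chain, had the lowest value (0.308 ± 0.0386, SD, n = 5), and 3 of the 4 SAM complex genes lay near it, MDM10 at 0.370 ± 0.0535, SAM37 at 0.379 ± 0.0374 and SAM50 at 0.400 ± 0.0235. TOM71, the paralog of TOM70 and also a receptor, stood at 0.815 ± 0.0519 and TOM20, the presequence receptor, at 0.816 ± 0.0884, both apart from TOM70 by more than the spread of any of them.

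**Figure D1:**
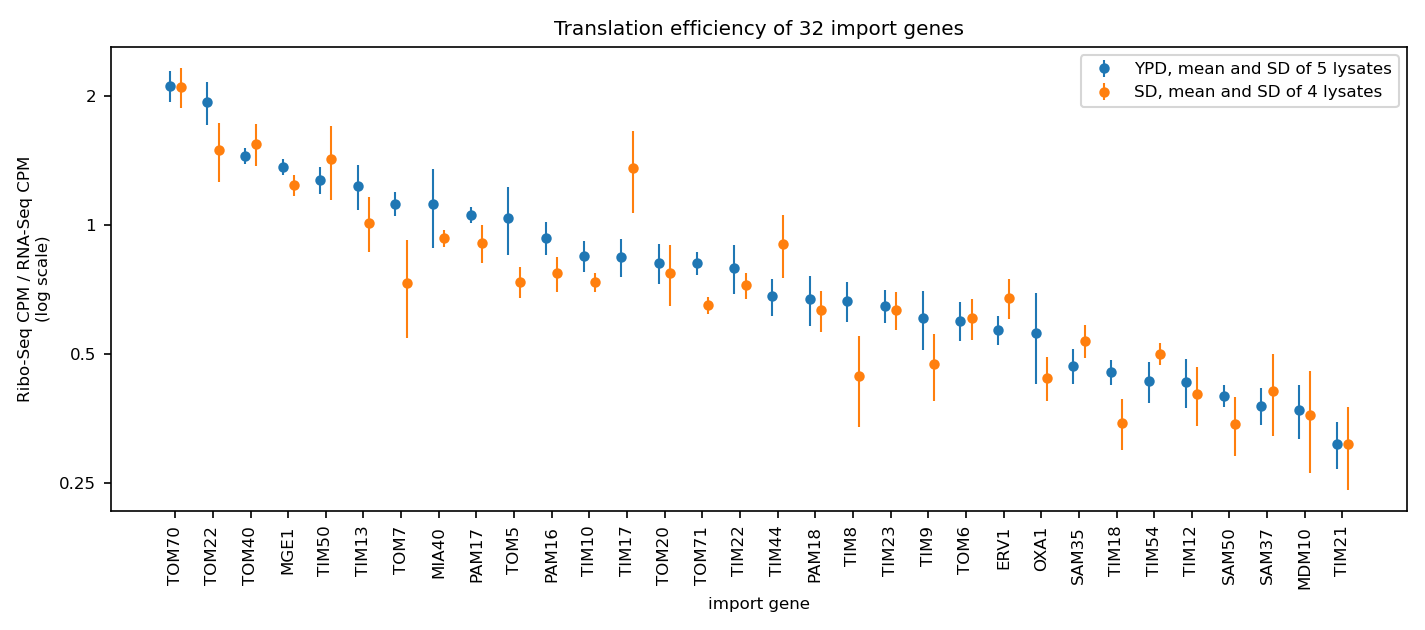
Translation efficiency (Ribo-Seq CPM over RNA-Seq CPM, log scale) of the 32 import genes, ordered by their mean in YPD, with points and bars for the mean and SD of 5 lysates in YPD and 4 in SD. TOM70 leads at 2.11 in YPD and TIM21 is lowest at 0.308, and TIM17 is the gene whose SD point lies farthest above its YPD point.

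More of these genes changed with the medium than with either deletion. In SD, ribosome footprints on the TOM complex fell: 6 of its 8 genes were lower by the test, and the median log2 fold change of the 8 was -0.41. Over all 32 genes, 12 fell and 3 rose in Ribo-Seq (46.9% called) at an adjusted p under 0.05 from edgeR, beside 23.3% of all 5369 genes tested, of which 12.9% were called higher and 10.4% lower. The median log2 fold change was -0.22 over the import genes and -0.0046 over all genes. All 4 lysates in SD lay below all 5 in YPD for 9 import genes (28.1%), beside 9.22% of all genes, and these were TOM5, TOM20, TOM22, TOM40, TOM70, TIM8, PAM18, MGE1 and MIA40. They lay above for 1, TIM54 (3.12%), beside 10.2% of all genes. The share that fell (37.5%) was thus above that of all genes and the share that rose (9.38%) below it. The 3 that rose, TIM17, TIM44 and SAM35, belong to the inner membrane translocase, its motor and the SAM complex. In bulk cultures such as these, fewer cells that use a gene and less RNA of it per cell cannot be told apart.

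TOM22 had the largest fall in footprints. It stood at 275 CPM in WT1, 279.8 in WT2, 281 in Δtma20, 238 in Δtma64 and 275 in ΔΔtma20tma64 in YPD, and at 154 CPM in wt, 198 in ΔΔtma20tma64, 184 in Δtma20 and 178 in Δtma64 in SD. The media did not overlap, and the Δtma64 lysate was the lowest of those in YPD (log2 fold change -0.60 with SE 0.0890, edgeR adjusted p = 0.000206). Its mRNA went from 140.4 ± 8.59 CPM (SD, n = 5) in YPD to 120.3 ± 6.68 CPM (SD, n = 4) in SD, with a log2 fold change of -0.22 that did not pass (adjusted p = 0.0506 from edgeR).

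TOM7 and TOM5 are small subunits, of which TOM7 modulates the assembly of the complex and TOM5 hands precursors to the channel. Footprints on TOM7 amounted to 97.9 CPM in WT1, 83.8 in WT2, 95.3 in Δtma20, 91.0 in Δtma64 and 95.8 in ΔΔtma20tma64 in YPD. In the other medium they amounted to 42.1 CPM in wt, 73.1 in ΔΔtma20tma64, 87.2 in Δtma20 and 61.1 in Δtma64 in SD. The groups overlapped, since Δtma20 in SD was above WT2, and wt in SD was the lowest (log2 fold change -0.55 with SE 0.131, edgeR adjusted p = 0.00901). For TOM5 the values were 99.2 CPM in WT1, 94.8 in WT2, 79.3 in Δtma20, 99.2 in Δtma64 and 75.0 in ΔΔtma20tma64 in YPD, against 57.4 CPM in wt, 60.8 in ΔΔtma20tma64, 65.5 in Δtma20 and 68.4 in Δtma64 in SD. All 4 lysates in SD were lower than all 5 in YPD, where both strains lacking TMA20 were the lowest (log2 fold change -0.48 with SE 0.0977, edgeR adjusted p = 0.00288). The mRNA of these 2 genes did not move with the medium by the test: TOM7 was at 83.0 ± 4.57 CPM (SD, n = 5) in YPD and 89.1 ± 4.95 CPM (SD, n = 4) in SD, and TOM5 at 87.0 ± 6.98 CPM (SD, n = 5) and 85.8 ± 5.48 CPM (SD, n = 4). TOM6, the other small subunit, which helps assembly, had a log2 fold change of -0.10 in footprints (adjusted p = 0.573 from edgeR).

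The receptors TOM70 and TOM20 fell in both assays. TOM70 footprints were 433 CPM in WT1, 429.8 in WT2, 379 in Δtma20, 424 in Δtma64 and 342 in ΔΔtma20tma64 in YPD, and 278 CPM in wt, 304 in ΔΔtma20tma64, 268 in Δtma20 and 339 in Δtma64 in SD. Its mRNA was 180.5 CPM in WT1, 207 in WT2, 197 in Δtma20, 208 in Δtma64 and 164 in ΔΔtma20tma64 in YPD, and 155 CPM in wt, 130.2 in ΔΔtma20tma64, 127 in Δtma20 and 158 in Δtma64 in SD. No lysate in SD reached those in YPD in either assay, and the log2 fold change was -0.41 in Ribo-Seq (standard error 0.0880, adjusted p = 0.00372 in edgeR) and -0.41 in RNA-Seq (standard error 0.0825, adjusted p = 0.00519 from edgeR). TOM20 had footprints of 185 CPM in WT1, 159 in WT2, 137 in Δtma20, 146 in Δtma64 and 148 in ΔΔtma20tma64 in YPD, and 133 CPM in wt, 114 in ΔΔtma20tma64, 105 in Δtma20 and 106 in Δtma64 in SD. Its mRNA was 227 CPM in WT1, 169 in WT2, 189 in Δtma20, 170.0 in Δtma64 and 199.7 in ΔΔtma20tma64 in YPD, and 139.8 CPM in wt, 150.1 in ΔΔtma20tma64, 149 in Δtma20 and 159 in Δtma64 in SD. The media were again separate in both assays, with WT1 the highest, and the log2 fold changes were -0.41 in Ribo-Seq (adjusted p = 0.00782 from edgeR) and -0.36 in RNA-Seq (adjusted p = 0.0223 from edgeR). The channel itself, TOM40, fell by a similar amount in mRNA (-0.34, adjusted p = 0.00613 from edgeR) and less in footprints (-0.26, adjusted p = 0.0342 from edgeR). TOM40 mRNA was 271 CPM in WT1, 260.2 in WT2, 291 in Δtma20, 262 in Δtma64 and 303 in ΔΔtma20tma64 in YPD, and 210.1 CPM in wt, 217 in ΔΔtma20tma64, 223 in Δtma20 and 233 in Δtma64 in SD, with no overlap. TOM71 mRNA had a positive log2 fold change (0.11) and its footprints a negative one (-0.20), neither of which passed.

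All 5 small TIM chaperones had negative log2 fold changes in footprints, from -0.50 (TIM8) to -0.17 (TIM12), and TIM8 and TIM13, partners in 1 hexamer, passed the test. TIM8 stood at 56.1 CPM in WT1, 60.3 in WT2, 52.7 in Δtma20, 60.6 in Δtma64 and 49.8 in ΔΔtma20tma64 in YPD, and at 25.4 CPM in wt, 47.3 in ΔΔtma20tma64, 36.3 in Δtma20 and 47.6 in Δtma64 in SD. The groups did not overlap, but wt and Δtma20 in SD, the shallow libraries, were well below the other lysates in SD (log2 fold change -0.50 with SE 0.142, edgeR adjusted p = 0.0229). Without wt in SD the log2 fold change of TIM8 was -0.30, and without both shallow libraries -0.21. TIM13 went from 82.3 ± 4.56 CPM (SD, n = 5) in YPD to 66.4 ± 7.71 CPM (SD, n = 4) in SD (log2 fold change -0.32, adjusted p = 0.0161 from edgeR). TIM9 and TIM10, the partners of the other hexamer, had -0.21 and -0.23 and did not pass. None of the 5 moved in mRNA by the test, where their log2 fold changes lay between -0.06 and 0.12.

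In the inner membrane translocases no gene fell in footprints by the test. TIM17, a core subunit of the presequence translocase, went in opposite directions in the 2 assays. Its footprints were 155 CPM in WT1, 142 in WT2, 123 in Δtma20, 144 in Δtma64 and 145 in ΔΔtma20tma64 in YPD, and 238 CPM in wt, 146 in ΔΔtma20tma64, 178 in Δtma20 and 170.3 in Δtma64 in SD. wt in SD was far above the rest and ΔΔtma20tma64 in SD lay within the range of YPD, so the groups overlapped (log2 fold change 0.38 with SE 0.106, edgeR adjusted p = 0.0193). Its mRNA was 182 CPM in WT1, 158 in WT2, 155 in Δtma20, 152 in Δtma64 and 200.2 in ΔΔtma20tma64 in YPD, and 133 CPM in wt, 123 in ΔΔtma20tma64, 139.6 in Δtma20 and 145 in Δtma64 in SD. Every lysate in SD was below every lysate in YPD in mRNA (log2 fold change -0.34 with SE 0.100, edgeR adjusted p = 0.0294). TIM23, the channel with which TIM17 pairs, had log2 fold changes of -0.01 in Ribo-Seq and 0.01 in RNA-Seq, and the receptor TIM50 had 0.23 and 0.07, none of which passed. TIM21 mRNA was lower in SD, at 151 CPM in WT1, 156 in WT2, 162 in Δtma20, 146 in Δtma64 and 162 in ΔΔtma20tma64 in YPD, and 131 CPM in wt, 135 in ΔΔtma20tma64, 139.6 in Δtma20 and 137 in Δtma64 in SD (log2 fold change -0.20, adjusted p = 0.0405 from edgeR). For the carrier translocase, TIM22 had -0.22, TIM18 -0.27 and TIM54 0.25 in Ribo-Seq, and no gene of it passed in either assay.

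Within the import motor, genes moved in both directions. TIM44, the scaffold that tethers the mitochondrial Hsp70 to the channel, rose in footprints, from 132 CPM in WT1, 133 in WT2, 127 in Δtma20, 142 in Δtma64 and 125.5 in ΔΔtma20tma64 in YPD to 209 CPM in wt, 153 in ΔΔtma20tma64, 139.8 in Δtma20 and 145 in Δtma64 in SD. The wt lysate in SD was the highest and Δtma20 in SD lay below Δtma64 in YPD (log2 fold change 0.31 with SE 0.103, edgeR adjusted p = 0.0438). PAM18, the J-protein that stimulates Hsp70, fell, with 68.4 CPM in WT1, 63.6 in WT2, 71.4 in Δtma20, 71.1 in Δtma64 and 84.9 in ΔΔtma20tma64 in YPD, and 56.1 CPM in wt, 59.9 in ΔΔtma20tma64, 55.6 in Δtma20 and 53.2 in Δtma64 in SD. Its groups did not overlap (log2 fold change -0.38 with SE 0.0878, edgeR adjusted p = 0.00589), and its mRNA fell too, from 116 CPM in WT1, 109 in WT2, 109 in Δtma20, 92.2 in Δtma64 and 112 in ΔΔtma20tma64 in YPD to 86.7 CPM in wt, 84.5 in ΔΔtma20tma64, 88.2 in Δtma20 and 98.3 in Δtma64 in SD (log2 fold change -0.27, adjusted p = 0.0434 from edgeR). In mRNA the lysate of Δtma64 in SD was above that of Δtma64 in YPD. MGE1, the nucleotide exchange factor of Hsp70, also fell in footprints (-0.28, adjusted p = 0.0284 from edgeR), while PAM16, the J-like partner of PAM18, and PAM17 had -0.17 and -0.23 and did not pass.

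In the SAM complex the core barrel SAM50 fell (-0.30, adjusted p = 0.0249 from edgeR) and SAM35, which binds the sorting signal of beta-barrel precursors, rose (0.28, adjusted p = 0.0477 from edgeR) in footprints, with no change by the test in mRNA. SAM35 went from 48.7 ± 3.37 CPM (SD, n = 5) in YPD to 59.2 ± 4.66 CPM (SD, n = 4) in SD, and SAM50 from 46.5 ± 3.22 CPM (SD, n = 5) to 37.8 ± 3.60 CPM (SD, n = 4). SAM37 (0.15) and MDM10 (-0.16) did not pass. Of the oxidation pathway, the receptor MIA40 fell in footprints from 198 ± 14.0 CPM (SD, n = 5) to 154 ± 13.5 CPM (SD, n = 4) (log2 fold change -0.35, adjusted p = 0.0141 from edgeR), while ERV1, the oxidase that recharges it, had 0.08 and the inner membrane insertase OXA1 -0.07, and neither passed.

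In RNA-Seq, 6 of the 32 genes fell and 0 rose, beside 27.7% of 5966 genes called, 14.9% higher and 12.8% lower. The 6 were TOM70, TOM20, TOM40, TIM17, PAM18 and TIM21, with log2 fold changes from -0.41 to -0.20. The share that fell (18.8%) was above that of all genes called lower, and the share called in either direction (18.8%) below that of all genes. With wt in SD, Δtma20 in SD or ΔΔtma20tma64 in YPD left out, only 2 fell, beside 18.5%, 19.1% and 19.2% of all genes called in either direction. The median log2 fold change was -0.045 beside 0.0035 over all genes. Across the 4 strains, footprints were lower in SD in every strain for 18 of the 32 genes and higher in every strain for 4, whereas mRNA was lower in every strain for 10 and higher for 3. The same count was not made over all genes, so whether these numbers are particular to the import genes cannot be said. In mRNA, SD lay below YPD without overlap for 6 genes (18.8%), beside 12.2% of all genes, and above it for TOM71 (3.12%), beside 12.9%.

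**Figure D2:**
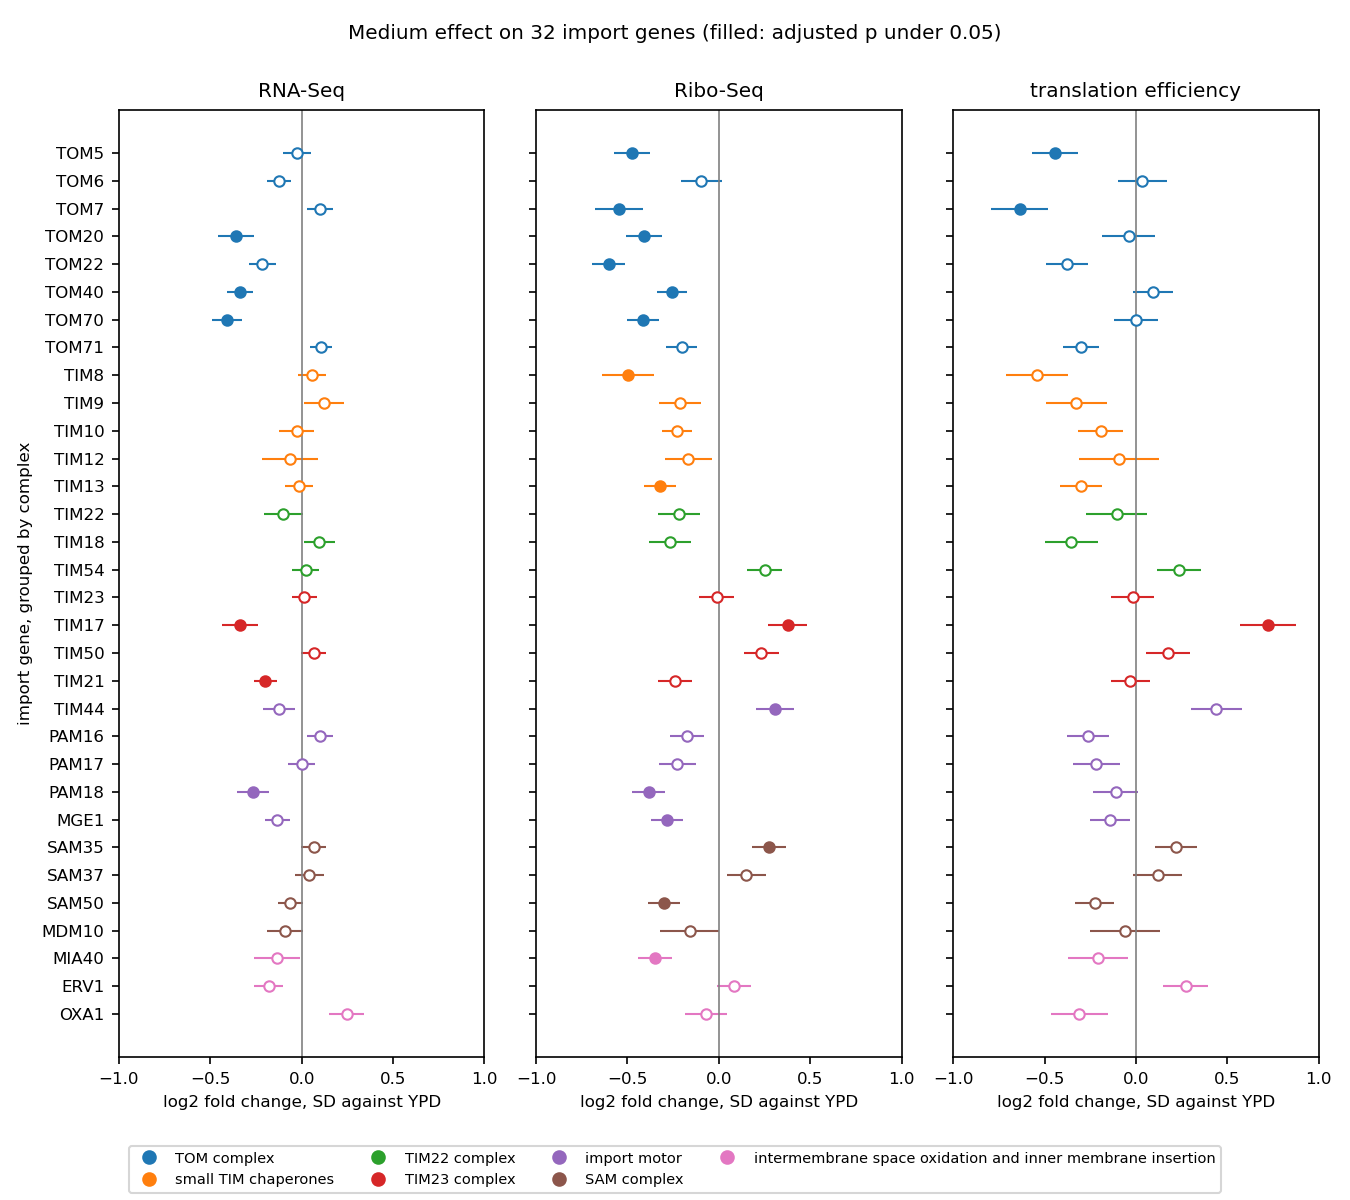
Log2 fold change in SD against YPD of each import gene in RNA-Seq, Ribo-Seq and translation efficiency, with bars for 1 standard error of edgeR's fit, colours for the complex, and filled points for an adjusted p under 0.05. In Ribo-Seq all 8 TOM genes and all 5 small TIM genes lie left of 0, and TIM17 lies left of 0 in RNA-Seq and right of it in Ribo-Seq.

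Translation efficiency changed by the test in 3 of the 32 genes (9.38%), beside 6.59% of 5935 genes tested, of which 4.4% rose and 2.19% fell. SD and YPD did not overlap for 7 genes lower in SD (21.9%), beside 6.2% of all genes, and for 2 higher (6.25%), beside 6.35%. By the test TIM17 rose and TOM7 and TOM5 fell. The efficiency of TIM17 was 0.850 in WT1, 0.896 in WT2, 0.796 in Δtma20, 0.948 in Δtma64 and 0.723 in ΔΔtma20tma64 in YPD, and 1.80 in wt, 1.19 in ΔΔtma20tma64, 1.27 in Δtma20 and 1.18 in Δtma64 in SD. All 4 lysates in SD lay above all 5 in YPD, wt by the widest margin (log2 fold change 0.72 with SE 0.152, edgeR adjusted p = 0.00747). Without the wt lysate in SD the log2 fold change was 0.60 and the adjusted p = 0.0737 from edgeR. For TOM7 it was 1.12 in WT1, 1.04 in WT2, 1.08 in Δtma20, 1.13 in Δtma64 and 1.23 in ΔΔtma20tma64 in YPD, and 0.502 in wt, 0.768 in ΔΔtma20tma64, 0.958 in Δtma20 and 0.705 in Δtma64 in SD, with wt in SD lowest and no overlap (log2 fold change -0.64 with SE 0.158, edgeR adjusted p = 0.0193). TOM5 had 1.10 in WT1, 1.10 in WT2, 0.824 in Δtma20, 1.28 in Δtma64 and 0.880 in ΔΔtma20tma64 in YPD, and 0.725 in wt, 0.656 in ΔΔtma20tma64, 0.771 in Δtma20 and 0.793 in Δtma64 in SD, also with no overlap (log2 fold change -0.44 with SE 0.127, edgeR adjusted p = 0.0419). TOM22, TIM8 and TIM44 had -0.38, -0.54 and 0.44 and did not pass. TOM7 and TOM5 are thus genes whose footprints fell with little movement in mRNA, while for TOM70, TOM20 and TOM40 both assays moved and the log2 fold change of the ratio was 0.00, -0.04 and 0.09. With the lysate as a block, which uses the pairing of both assays, 5 genes (15.6%) passed, beside 9.65% of all genes, the added ones being TIM8 (-0.58) and TIM44 (0.44). Without the wt lysate in SD, 0 of the 32 passed with edgeR, beside 2.01% of all genes.

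**Figure D3:**
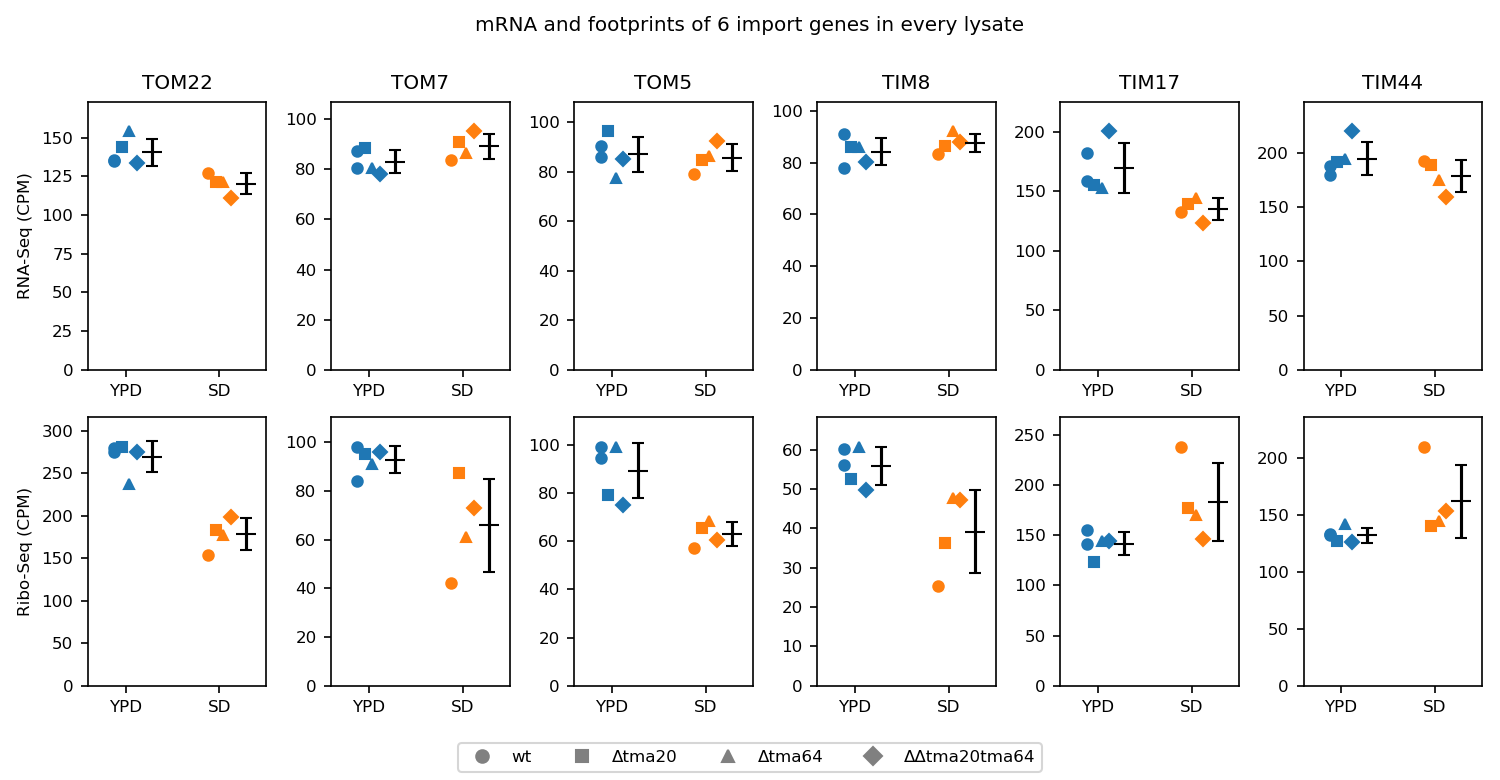
RNA-Seq CPM (top) and Ribo-Seq CPM (bottom) of TOM22, TOM7, TOM5, TIM8, TIM17 and TIM44 in each of the 9 lysates, with symbols for the strain and a bar for the mean and SD of the medium. TOM22 footprints lie between 238 and 281 CPM in YPD and between 154 and 198 CPM in SD, and the wt lysate in SD is the extreme one for TOM22, TOM7, TOM5, TIM8, TIM17 and TIM44 in Ribo-Seq.

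The wt and Δtma20 libraries in SD, which held the fewest footprints, were left out to see how far the comparison rests on them. Without both, 4 of the 32 genes (12.5%) were called in Ribo-Seq, beside 6.94% of all genes in that fit, and all 4 were lower: TOM7 (-0.48), PAM18 (-0.46), TOM22 (-0.45) and TOM5 (-0.42). The median of the TOM complex was then -0.33 and that of all 32 genes -0.19, with 26 of the 32 negative as against 25 with every library. Without the wt library alone, 6 (18.8%) were called, all lower, beside 14% of all genes. The 3 rises were not called in either case, and TIM17 and TIM44 had log2 fold changes of 0.12 and 0.16 without both libraries. Without both, every lysate left in SD lacks TMA64, so depth and TMA64 genotype changed together when they were left out. The part of either in these differences was not tested.

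Each of the 9 lysates was also left out in turn. In Ribo-Seq, TOM22, TOM7, TOM5, TOM70, TOM20 and PAM18 were called in all 9 omissions, as were TOM70 and TOM40 in RNA-Seq. TIM13 lost its Ribo-Seq call without wt in SD (edgeR adjusted p = 0.0601), TIM8 without wt or Δtma20 in SD (up to 0.0862), and MIA40 without wt, Δtma20 or Δtma64 in SD (up to 0.0674). TIM17 lost its call in Ribo-Seq without WT2, wt in SD or Δtma20 in either medium (edgeR adjusted p up to 0.130), SAM50 its call without WT2 or without wt, Δtma20 or Δtma64 in SD (up to 0.0753, with log2 fold changes from -0.31 to -0.28 in all 9 omissions), and MGE1 without WT2, wt in SD or Δtma64 in either medium (up to 0.135). The Ribo-Seq call of TOM40 was kept in 3 omissions and was lost without WT1, WT2, ΔΔtma20tma64 in YPD, or wt, Δtma20 or Δtma64 in SD (edgeR adjusted p up to 0.147). The rises of TIM44 and SAM35 were each kept in 2. TIM44 was called without Δtma20 or Δtma64 in SD and lost with any other lysate left out (edgeR adjusted p up to 0.307), and SAM35 was called without WT1 or ΔΔtma20tma64 in SD and lost otherwise (up to 0.155). Among the mRNA calls, TOM20 was lost without wt in SD, Δtma20 in SD or ΔΔtma20tma64 in YPD (edgeR adjusted p up to 0.0903), and TIM17 also without ΔΔtma20tma64 in SD (up to 0.117), while PAM18 was kept without WT1 or Δtma64 in either medium (up to 0.158 otherwise) and TIM21 without WT1 or Δtma64 in YPD (up to 0.139 otherwise). In translation efficiency TOM7 was lost without WT2, wt in SD or Δtma64 in either medium (edgeR adjusted p up to 0.0737), and TOM5 was kept without WT1 or Δtma20 in SD (up to 0.145 otherwise).

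The differences between the media were set beside coding length. Over the 32 genes, Spearman's rho between length and the log2 fold change in SD was 0.33 in Ribo-Seq, 0.42 in translation efficiency and -0.07 in RNA-Seq, and over all genes it was 0.017, 0.099 and -0.13. These are correlations across genes of the same libraries, given as a description. The 8 import genes of up to 330 nt, which are TOM5, TOM6, TOM7 and the 5 small TIM chaperones, had a median of -0.31 in translation efficiency and the longer ones -0.05. In footprints alone the medians lay close together, at -0.28 and -0.21, and in mRNA they were -0.02 and -0.09. In translation efficiency, all genes of up to 330 nt had a median of -0.13 and all longer ones 0.03. The part of length in the changes of TOM5, TOM7 and TIM8 was not tested.

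The balance between partners of a complex was read as the ratio of their footprints per kb in each lysate, over 8 pairs and 2 contrasts. TIM9 and TIM10 kept nearly the same ratio in both media, 0.276 ± 0.0249 (SD, n = 5) in YPD and 0.277 ± 0.0321 (SD, n = 4) in SD. By contrast, TOM22 relative to TOM40 was 1.70 ± 0.103 (SD, n = 5) in YPD and 1.33 ± 0.0515 (SD, n = 4) in SD, TIM17 relative to TIM23 1.36 ± 0.0687 (SD, n = 5) and 1.76 ± 0.223 (SD, n = 4), and SAM35 relative to SAM50 1.55 ± 0.144 (SD, n = 5) and 2.32 ± 0.380 (SD, n = 4). ERV1 relative to MIA40 was 0.486 ± 0.0416 (SD, n = 5) and 0.668 ± 0.0672 (SD, n = 4), and TOM70 relative to TOM71 4.72 ± 0.0597 (SD, n = 5) and 4.11 ± 0.498 (SD, n = 4). For these 5 pairs the lysates in SD and YPD did not overlap, and each had p = 0.0159 in an exact two-sided permutation test taken as 2 times the smaller tail, the smallest p that 4 lysates against 5 allow. Adjusted over the 16 comparisons it was 0.0508, so none passed. When the two-sided p was instead taken as the share of splits with at least the same absolute difference, a reading added after the values were seen, the adjusted exact p of the same 5 pairs was 0.0254 and they passed. TIM8 relative to TIM13 and PAM16 relative to PAM18 overlapped between the media. In TIM8 relative to TIM13 the ratio was 0.503 in wt and 0.562 in Δtma20 in SD, the shallow libraries, and 0.918 and 0.884 in the other lysates in SD. Between lysates with and without TMA20 no pair passed, and the smallest exact permutation p was 0.111, for PAM16 relative to PAM18.

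**Figure D4:**
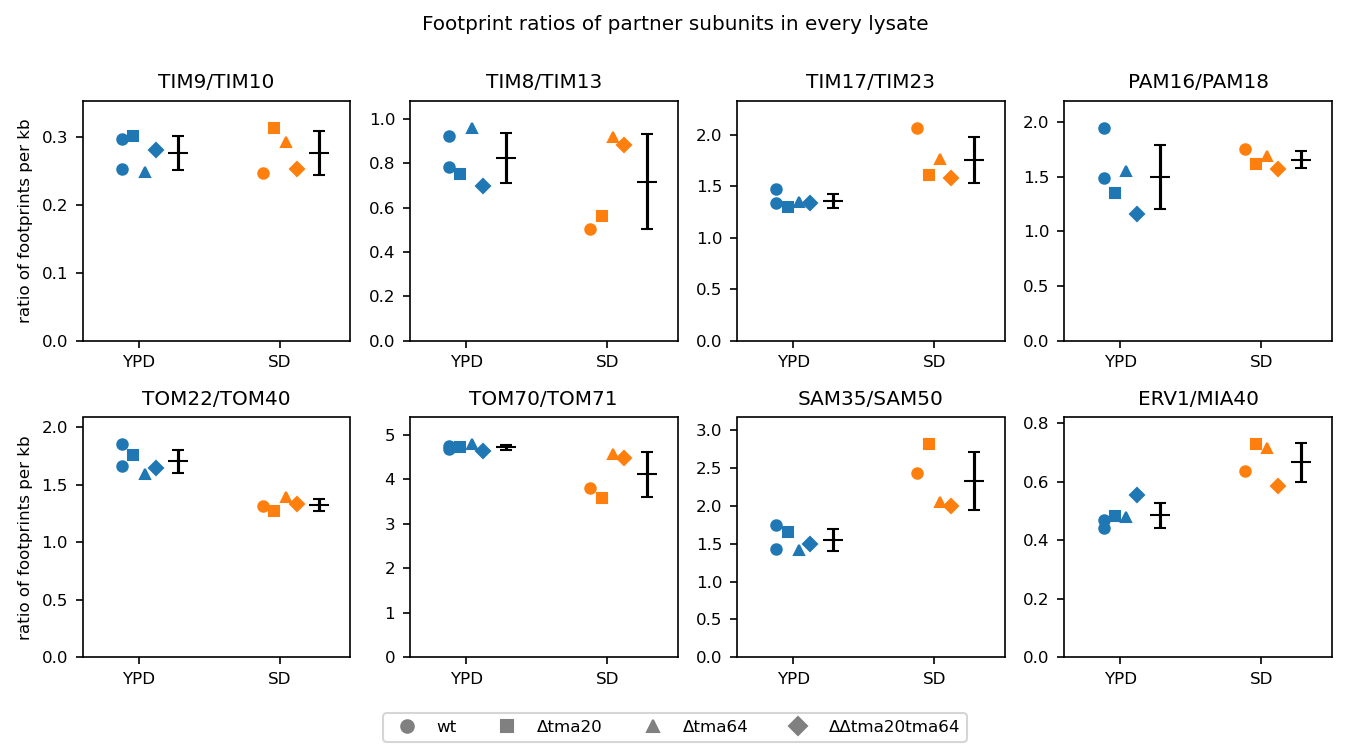
Ratio of footprints per kb of 8 pairs of partner subunits in each lysate in YPD and SD, with symbols for the strain and a bar for the mean and SD of the medium. TOM22/TOM40 lies between 1.60 and 1.85 in YPD and between 1.27 and 1.40 in SD, while TIM9/TIM10 lies between 0.247 and 0.314 over both media.

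Other genes of the pathway and of its clients moved in different ways in SD, counted in Ribo-Seq beside the 12.9% higher and 10.4% lower of all genes. Of 26 further import factors, such as the Hsp70 SSC1, the processing peptidases and the insertion factors, 2 rose and 5 fell. MBA1, which docks the mitochondrial ribosome at the inner membrane, had -0.73, MSS2 -0.66 and MIM2, which inserts outer membrane proteins, 0.66. Of 70 proteins of the mitochondrial ribosome, which enter through TOM and TIM23, 0 rose and 32 fell, with a median of -0.29 and the largest falls in MRPL3 (-0.68), MRPL7 (-0.67) and RSM10 (-0.66). The nuclear genes of oxidative phosphorylation went the other way, since 13 of 41 rose and 0 fell (median 0.18), led by NDE2 (1.30), CYC1 (0.87) and TIM11 (0.74), the last a subunit of the ATP synthase and no translocase. Among 24 mitochondrial carriers, the clients of the TIM22 complex, 7 rose and 3 fell, with ODC2 (1.74), AAC1 (1.34) and DIC1 (1.31) the most changed. Of 4 proteins of the outer membrane, the barrel POR1 fell (-0.42) and OM45 rose (1.31). Of 9 clients of MIA40 with paired cysteines, COX12 rose (0.34) and MIX23 fell (-0.69), and of 10 genes of ERMES and MICOS, the contact site and cristae complexes, MIC10 rose (0.63). In RNA-Seq, set beside 14.9% higher and 12.8% lower of all genes, 3 of the 26 import factors rose and 8 fell, 0 of the 70 ribosomal proteins rose and 8 fell, and 10 of the 41 oxidative phosphorylation genes rose and 3 fell. Of 25 carriers tested in mRNA 4 rose and 7 fell, whereas more rose than fell in footprints, and of the 9 MIA40 clients 1 rose and 3 fell. Of the 4 outer membrane proteins 0 rose and 1 fell, and of the 10 ERMES and MICOS genes none was called.

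Loss of TMA20, compared over 4 lysates without it and 5 with it, changed the footprints of 1 of the 32 genes (3.12%), beside 3.95% of 5369 genes tested (1.58% higher), so the share was close to that of all genes. The gene was TIM21. Its footprints were 43.4 CPM in WT1, 42.0 in WT2, 56.3 in Δtma20, 41.7 in Δtma64 and 56.9 in ΔΔtma20tma64 in YPD, and 30.7 CPM in wt, 52.2 in ΔΔtma20tma64, 47.4 in Δtma20 and 37.7 in Δtma64 in SD. The 4 lysates lacking TMA20 were above the 5 others, and within each medium both were above the lysates with TMA20. The means were 53.2 ± 4.43 CPM (SD, n = 4) without TMA20 and 39.1 ± 5.15 CPM (SD, n = 5) with it (log2 fold change 0.46 with SE 0.0895, edgeR adjusted p = 0.0160). Such a separation in the higher direction was seen for 2.78% of all genes tested. In mRNA TIM21 stood at 149.7 ± 14.2 CPM (SD, n = 4) without TMA20 and 144 ± 10.1 CPM (SD, n = 5) with it. Its translation efficiency was 0.288 in WT1, 0.269 in WT2, 0.347 in Δtma20, 0.285 in Δtma64 and 0.352 in ΔΔtma20tma64 in YPD, and 0.234 in wt, 0.385 in ΔΔtma20tma64, 0.339 in Δtma20 and 0.275 in Δtma64 in SD. These groups did not overlap either (1.13% of all genes in the higher direction), though the test across both assays did not pass (log2 fold change 0.38 with SE 0.105, edgeR adjusted p = 0.324). The call in Ribo-Seq was lost without the Δtma64 lysate in either medium (adjusted p up to 0.0581 from edgeR) and in YPD alone (log2 fold change 0.42, adjusted p = 0.125 from edgeR). It was made in SD alone (0.53, adjusted p = 0.0375 from edgeR, where 5.27% of all genes were called). The fit in SD alone held only 4 lysates, 1 per strain, with both shallow libraries among them, so it had little residual spread to test against.

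**Figure D5:**
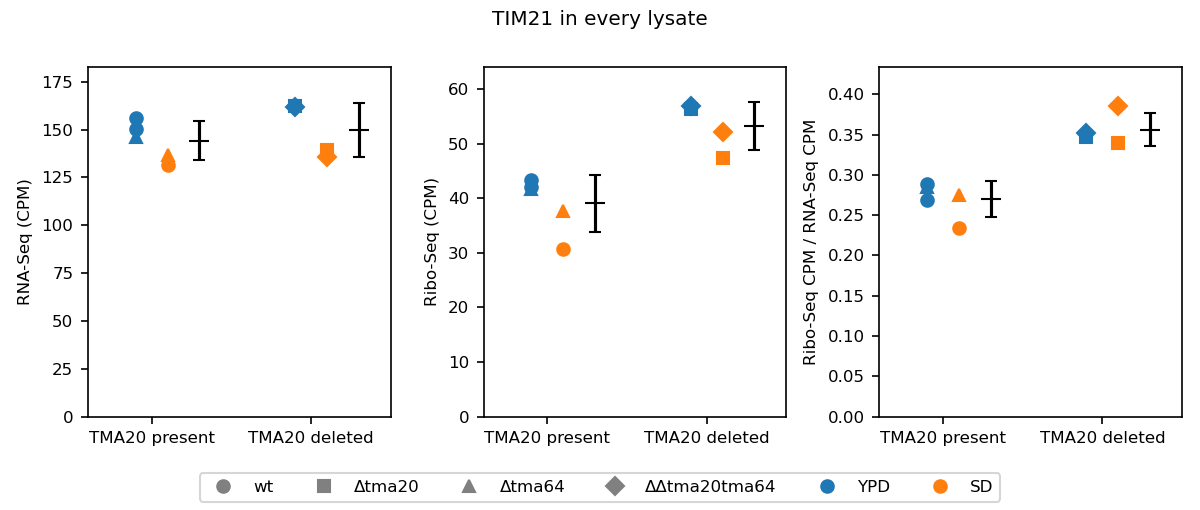
RNA-Seq CPM, Ribo-Seq CPM and translation efficiency of TIM21 in each of the 9 lysates, split by the presence of TMA20, with symbols for the strain, colours for the medium and bars for the mean and SD. The 4 lysates without TMA20 lie between 47.4 and 56.9 CPM in Ribo-Seq and the 5 with it between 30.7 and 43.4 CPM, while the mRNA overlaps.

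The next import genes in this comparison did not pass. TIM12, the small TIM bound to the TIM22 complex, had a log2 fold change of 0.42 in Ribo-Seq (adjusted p = 0.0706 from edgeR), and it passed without WT1 (0.49) or without Δtma20 in YPD (0.56). PAM17, a subunit that helps assemble the motor, had 0.31 in Ribo-Seq (adjusted p = 0.0924 from edgeR) and 0.25 in RNA-Seq (adjusted p = 0.313 from edgeR), where its lysates without TMA20 lay above the others, as did those of TIM18 and 1.27% of all genes. In RNA-Seq 0 of the 32 genes were called with edgeR or DESeq2, beside 0.0838% of all genes with edgeR. At an unadjusted p under 0.05 in edgeR's fit there were 3, PAM17, TOM70 (-0.20) and TIM18 (0.20), beside 600 of 5966 genes tested. In translation efficiency 0 were called with edgeR or DESeq2, beside 0.0674% of all genes with edgeR. Here too 3 had an unadjusted p under 0.05 in edgeR's fit, TIM21, TOM5 (-0.32) and SAM37 (-0.32), beside 419 of 5935 genes tested. The further lists were set beside all 5369 genes tested in Ribo-Seq, of which 85 were called higher and 127 lower. In these lists the Hsp70 of the motor, SSC1, fell in Ribo-Seq (-0.27, 1 of 26 import factors), as did the carriers ODC1 (-0.77) and GGC1 (-0.53, 2 of 24). Of the 9 MIA40 clients COX19 (0.53) and COX12 (0.41) rose and COX17 (-0.50) fell. Of the 41 oxidative phosphorylation genes COX8 (0.47) and COX12, which is in both lists, rose.

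Loss of TMA64 gave no call among the 32 genes with edgeR or DESeq2 in RNA-Seq, Ribo-Seq or translation efficiency, beside 0.0168%, 0.0559% and 0.0168% of all genes with edgeR. At an unadjusted p under 0.05 there were 1, 0 and 1 in edgeR's fit, beside 133 of 5966, 280 of 5369 and 134 of 5935 genes tested. The smallest p-values belonged in RNA-Seq to ERV1 (log2 fold change 0.21), PAM16 (-0.10) and TIM18 (-0.09), in Ribo-Seq to SAM50 (0.18), TIM8 (0.23) and TIM10 (0.11), and in translation efficiency to SAM50 (0.23), ERV1 (-0.18) and TIM8 (0.20). Without the wt and Δtma20 libraries in SD the Ribo-Seq value of TIM8 was -0.0071. No lysate in SD with TMA64 remained in that fit, so the value rested on YPD, where alone it was 0.0026.

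The effect of TMA20 loss was also compared between the media and between the TMA64 genotypes by an added interaction term. No import gene passed in either assay with edgeR or DESeq2, beside 0.112% (medium) and 0.149% (TMA64) of all genes in Ribo-Seq and 0% in RNA-Seq with edgeR. At an unadjusted p under 0.05 there was 1 in each Ribo-Seq test, beside 285 (medium) and 461 (TMA64) of 5369 genes. In RNA-Seq there was 0, beside 130 and 109 of 5966. The Ribo-Seq genes were TOM7 for the medium (0.49, adjusted p = 0.893 from edgeR) and TOM20 for TMA64 (0.39, adjusted p = 0.506 from edgeR). After these, the smallest p-values for the medium belonged to TOM5 (0.31) and TOM6 (0.34) in Ribo-Seq and to TIM54 (-0.25), TIM44 (-0.22) and TOM40 (-0.17) in RNA-Seq. For TMA64 they belonged to TIM22 (0.42) and MIA40 (0.33) in Ribo-Seq and to PAM17 (0.24), MIA40 (-0.36) and TIM22 (0.30) in RNA-Seq, and none of these passed. For TOM7 the 4 footprint values in SD ran from 42.1 CPM in wt to 87.2 CPM in Δtma20, a wider span than in YPD. In SD alone TOM7 was called as higher without TMA20 (log2 fold change 0.56, adjusted p = 0.0124 from edgeR), in a fit that called 5.27% of all genes. That fit held only 4 lysates, 1 per strain, with both shallow libraries among them, so it had little residual spread to test against. Over all lysates TOM7 had 0.27 for loss of TMA20 and did not pass (adjusted p = 0.271 from edgeR). The mutants have 1 lysate per medium, so all these p-values rest on the spread between lysates of different strains and media.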

How the data were processed

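The deposited files hold raw counts of reads per gene for 18 libraries. The authors trimmed adapters with cutadapt 1.18 and aligned with STAR 2.5.3a to Ensembl R64-1-1, release 90, and STAR counted uniquely assigned reads on the strand of each gene. Reads outside genes made up 18.8% to 39.1% of the RNA-Seq tables and 0.805% to 1.58% of the Ribo-Seq tables and were left out, as were the opposite-strand counts. Footprints were counted over annotated genes without regard to reading frame.

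Fits used edgeR 4.0.16 with R 4.3.3 (filterByExpr with a minimum count of 10, TMM, robust quasi-likelihood test, Benjamini-Hochberg adjustment over all genes tested, threshold 0.05). The model held loss of TMA20, loss of TMA64 and medium as additive terms over the 9 lysates of an assay, and translation efficiency was their interaction with the assay over 18 libraries. Mutants have 1 lysate per medium, so residual spread is borrowed across strains and media. The exact permutation p-values printed are those of the pair ratios. The same test was run on single genes without regard to the other factors, and its p-values are not given. CPM shown are TMM-scaled without a prior count. Levels per kb used the coding length. Alternatives were DESeq2 1.42.0, RLE size factors, no filter, unstranded counts, a model of 4 strains and medium, the lysate as a replicate block, 1 medium alone and omitted libraries. Scripts were tested on simulated data.

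Both assays of a lysate come from the same material per the methods of the study. Over 5367 genes their deviations from the fit correlated by 0.0399 to 0.268, and for WT1, wt in SD and Δtma64 in YPD another lysate correlated better, so the pairing rests on the methods. WT1 and WT2 differed by more than counting noise (chi-square per degree of freedom 17.9 for RNA-Seq counts and 13.1 for Ribo-Seq counts) and were kept as 2 samples.

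The 32 genes and the gene lists were chosen with earlier results of these data known. Values per lysate are given for up to 8 called genes of the 32 with the largest log2 fold change in each comparison and assay. The 3 genes with the smallest p where none was called are given by their log2 fold changes, and the highest and lowest levels and the fixed pairs of subunits by their mean and spread. TIM44 was given per lysate outside this rule, after its values were seen. Up to 3 genes are named per list. Sequences came from the RefSeq R64 genome.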

Additional observations from a re-analysis of the deposited data

Results flagged for a closer look

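In groups of 4 or 5 lysates, 22 of the import genes were examined in RNA-Seq, Ribo-Seq and translation efficiency, 132 groups in all, for a lysate far from the others by Dixon's test, which chance gives in about 1 group in 20. There were 7 such values. In SD, wt was apart for the translation efficiency of TIM17, at 1.80 where the next was 1.27, and of PAM17, at 0.769 where the next was 0.938. In YPD, Δtma64 was apart for TOM22, with 238 CPM in Ribo-Seq (next 275) and a translation efficiency of 1.54 (next 1.95), and for TIM18, with 24.3 CPM in Ribo-Seq (next 29.5). TIM10 had 313 CPM in RNA-Seq in WT1 (next 267) and 209 CPM in Ribo-Seq in Δtma20 in YPD (next 230.1).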

How the results depend on the processing

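Translation efficiency in SD was the comparison that moved most with the fit: 3 of the 32 genes were called as reported (6.59% of all genes), 5 with RLE size factors (6.86%), 7 with DESeq2 (11.1%), 6 with unstranded counts (8.45%) and 5 with the replicate block (9.65%), which pairs both assays of a lysate. The block changed no other call that was fitted with it. In Ribo-Seq, 15 genes were called in SD with all libraries (23.3% of all genes) and 4 without wt and Δtma20 in SD (6.94%). DESeq2 also called 15 (23.3%), 13 lower and 2 higher, with TIM10 (-0.23) among them and SAM35 not. The SAM35 call was lost as well with no filter and in a model of 4 strains and medium. Loss of TMA20 gave 0 calls in YPD alone (0.799% of all genes) and 2 in SD alone (5.27%) in Ribo-Seq, and 2 in SD alone in RNA-Seq (9.88%). Loss of TMA64 gave 1 call in SD alone in Ribo-Seq (3.62% of all genes), TIM8 (0.63). In SD the lysates with TMA64 are the shallow libraries, so depth and loss of TMA64 cannot be told apart there. Without wt and Δtma20 in SD the log2 fold change of TIM8 was -0.0071. That fit compared TMA64 genotypes in YPD only, so it says nothing about the value in SD. The fits in SD alone held only 4 lysates, 1 per strain, so their calls rest on little residual spread. Of the pair ratios, 5 passed with p from the absolute difference, a reading chosen after seeing the data, and 0 as reported.

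With each lysate left out in turn, the calls ranged from 2 to 8 for RNA-Seq in SD, from 6 to 15 for Ribo-Seq in SD, from 0 to 4 for translation efficiency in SD, and from 0 to 3 for loss of TMA20 in Ribo-Seq. The lowest counts in SD came beside 18.5% to 19.2% of all genes in RNA-Seq, 14% in Ribo-Seq and 2.01% in translation efficiency. For loss of TMA20 in Ribo-Seq, 0 came beside 1.28% or 1.22% and 3 beside 5.06%. The cause of these shifts was not tested. Among the values of single genes, 661 of the alternatives left the direction and the call as they were, 89 lost the call, 3 gained it and 1 turned the sign. The 661 include genes named only for a small p, which had no call to lose. Among genes that were called, the share of alternatives that lost the call was therefore larger than these counts show. The least covered gene, MDM10, had 25 footprints in its shallowest library, which limits what can be seen for it.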
